A study of Arabidopsis thaliana with 18 samples.

Results

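After 1 h at 37 °C, transcript levels of sant-null seedlings were set against those of hda6 seedlings, with 3 libraries in each group, 6 of the 18 libraries of the series. The sant-null plants are labelled as quadruple mutants, and the series design names SANT1/2/3/4 as the genes studied. The hda6 plants are labelled as an EMS line, that is, a line from chemical mutagenesis, which can carry changes at other sites as well. Neither label names an allele, and the sources used here do not give how sant-null was made. Col-0, the wild type, also had 3 libraries at 37 °C and is given last beside the mutants. All seedlings of Arabidopsis thaliana grew for 7 days on half-strength medium at 22 °C in long days, and whole seedlings were harvested. The same genotypes kept at 22 °C served as a second, separate set of libraries for the same contrast. The series design is concerned with the part of SANT1/2/3/4 in transcription under heat. The comparison of the mutants asks which transcripts differ between them once heat has been applied.

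HDA6 is a histone deacetylase: it removes acetyl groups from histone tails, and in Arabidopsis it is known for keeping transposons, ribosomal RNA gene copies and some methylated genes silent. SANT domains are protein modules found in many chromatin complexes, several of which hold histone deacetylases. In the heat response, heat shock transcription factors bind heat shock elements in promoters and switch on chaperone genes, whose proteins keep other proteins folded.

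Each sant-null library had an estimated 20.4 to 23.6 M fragments assigned to genes (M for mega), and each hda6 library 19.2 to 21.2 M. Expression is given as FPKM, the fragments of a gene scaled to its length in kilobases and to each M of fragments, which the authors deposited as a single mean per group, so no spread between libraries can be shown beside a level. The difference between the mutants is the log2 fold change of sant-null over Col-0 minus that of hda6 over Col-0, both from the authors' deposited tables, so that a positive value means higher in sant-null. The Col-0 level cancels in it. Its error is the standard error (SE), and a gene was called at a Benjamini-Hochberg adjusted p under 0.05 in a 2-sided Wald test over all 21775 genes tested. Nothing in the labels tells whether a group's libraries came from separate sowings. The p-values therefore rest on the spread among these libraries alone, and that spread may be technical. In whole seedlings, fewer cells of a type and less RNA per cell cannot be told apart.

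HDA6 itself (AT5G63110) had 4.03 FPKM in sant-null, against 3.44 FPKM in hda6 and 3.96 FPKM in Col-0. The difference was 0.18 ± 0.18 (Wald test, Benjamini-Hochberg adjusted p = 0.928), so the transcript does not check the hda6 label. SANT1 to SANT4 are not named in the annotation and were not analysed one by one. Photosynthesis transcripts were abundant, as in green seedlings, and floral and seed transcripts were near 0. The summed level of 26 light-harvesting, photosystem and rubisco genes was 39535 FPKM in sant-null and 41296 FPKM in hda6. That of 6 floral identity genes was 1.96 FPKM in sant-null and 1.65 FPKM in hda6, and that of 13 seed genes 0.441 FPKM in sant-null and 0.390 FPKM in hda6.

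In all, 497 genes were higher in sant-null than in hda6 (2.28% of those tested) and 409 were lower (1.88%), 906 together (4.16%). A further 1575 genes had an unadjusted p under 0.05. Most differences were modest: the median was 0.59 among the higher genes and -0.38 among the lower genes, beside 0.03 over all genes tested. At least 2-fold differences were found for 88 of the higher and 60 of the lower genes, and at least 4-fold ones for 18 and 27. The genes higher in sant-null had a median level of 7.95 FPKM in sant-null and 5.18 FPKM in hda6, while the lower genes were more abundant, with 29.3 FPKM in sant-null and 40.04 FPKM in hda6. Higher genes made up 54.9% of the calls, but 67.2% when FPKM ratios replaced the deposited fold changes and 44.2% when the difference was centred on its median, so neither direction is taken as the more frequent one.

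**Figure D1:**
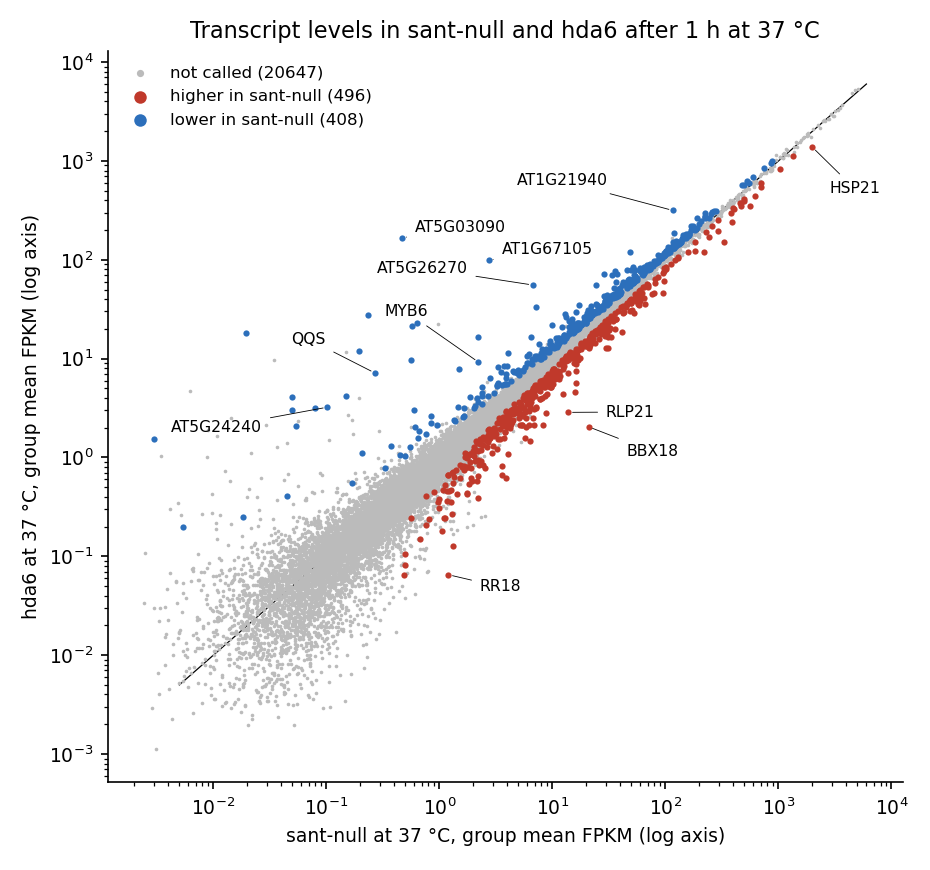
Group mean FPKM at 37 °C of each gene tested, sant-null on the horizontal and hda6 on the vertical log axis, with the line of equal level. Red marks 496 genes called higher and blue 408 called lower in sant-null (called genes listed at 0 are not drawn), and the points far above the line are genes with little transcript in sant-null.

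The authors' deposited tables give the level of these genes against Col-0. Among the 497 higher genes the median log2 fold change in the authors' deposited table was 0.01 for sant-null and -0.53 for hda6. Among the 409 lower genes the medians in the authors' deposited tables were -0.10 for sant-null and 0.28 for hda6. In either direction the median lay nearer to Col-0 in sant-null than in hda6. Both tables share the Col-0 libraries, and the genes were chosen on the difference between these values, so the medians are a description.

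The largest differences were transcripts present in hda6 and nearly missing in sant-null. Among called genes of at least 1 FPKM that differed at least 4-fold, 13 were higher in sant-null and 24 were lower. The product was uncharacterized or non-coding for 0 of the 13 and 15 of the 24. Of all 80 tested genes of this level and size, called or not, 40 had such a product. AT5G03090, annotated as a Mto 1 responding down protein, had 0.469 FPKM in sant-null, against 167 FPKM in hda6 and 1.65 FPKM in Col-0. Its difference of -8.54 ± 0.64 was among the 10 strongest by Wald score. AT1G67105, a non-coding RNA, had 2.74 FPKM in sant-null, against 98.8 FPKM in hda6 and 2.44 FPKM in Col-0 (difference -5.22 ± 0.24). In both cases sant-null lay close to or under the wild-type level and hda6 stood alone.

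Several genes with no assigned function were also far higher in hda6 than in either of the others. AT5G26270 had 6.70 FPKM in sant-null, against 55.6 FPKM in hda6 and 7.25 FPKM in Col-0 (difference -3.10 ± 0.13). AT3G01345 had 0.636 FPKM in sant-null, against 22.9 FPKM in hda6 and 0.134 FPKM in Col-0 (difference -5.20 ± 0.54). AT5G15360 had 0.196 FPKM in sant-null, against 11.9 FPKM in hda6 and 0.261 FPKM in Col-0 (difference -5.97 ± 0.81). Genes with a known role in this set were HISN6B (AT1G71920), a copy of a histidine synthesis enzyme, and QQS (AT3G30720), an orphan gene that affects starch content and is known to be silenced by DNA methylation. HISN6B had 0.0797 FPKM in sant-null, against 3.18 FPKM in hda6 and 0.0561 FPKM in Col-0 (difference -5.41 ± 0.98). QQS had 0.268 FPKM in sant-null, against 7.17 FPKM in hda6 and 0.132 FPKM in Col-0 (difference -4.80 ± 0.97).

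A few of the 15 largest negative differences rested on almost no transcript in sant-null, and their fitted sizes depend on that. The non-coding RNA AT2G15555 had an estimated 2.86 fragments over the 3 sant-null libraries, against 2457 in hda6 (18.1 FPKM), so the ratio of hda6 over sant-null was 921, with an exact 95% counting interval of 261 to 3712. AT2G40955 had an estimated 1.00 fragments in sant-null and 474 in hda6, a ratio of hda6 over sant-null of 506 with an interval of 79.1 to 17522. AT1G06963, a non-coding RNA, was listed at 0 in sant-null and had 3.16 FPKM in hda6, so no fold is given. These intervals cover counting error only.

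Genes listed at 0 in both sant-null and Col-0 could not enter the derived test, because the deposited tables give no usable value for them. Of 10773 genes not tested, 8126 were listed at 0 in both mutants, and 25 reached at least 1 FPKM in one of them. All 25 were listed at 0 in sant-null and Col-0 at 37 °C and were present in hda6, with an estimated 26.8 to 6981 fragments there. The most abundant was AT1G32010, annotated as a myosin heavy chain-like protein, with 21.99 FPKM in hda6, an estimated 6981 fragments. AT4G05275, a non-coding RNA, had 16.0 FPKM in hda6, and AT1G36240, annotated as a ribosomal protein of the L7Ae family, had 11.9 FPKM. Transposon or Ulp1 protease products, the second often carried by transposons, were annotated for 6 of the 25, among them AT5G45570 (Ulp1, 2.79 FPKM in hda6), AT1G34070 (copia-like, 1.48 FPKM) and AT3G30820 (retrotransposon, 1.25 FPKM). The share of these products together over all genes was not counted, so the 6 are a description. At 22 °C, in other libraries, 13 of the 25 were again listed at 0 in sant-null and Col-0, and 22 had at least 1 FPKM in hda6. Over all 32548 genes, 33 were listed at 0 in sant-null with at least 1 FPKM in hda6, and 0 genes showed the reverse.

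Not every large negative difference came from a high hda6 level. AT5G24240, annotated as a phosphatidylinositol 4-kinase gamma-like protein, had 0.102 FPKM in sant-null, against 3.22 FPKM in hda6 and 3.94 FPKM in Col-0, so here sant-null stood alone (difference -5.02 ± 0.30). ESM1 (AT3G14210), which directs the breakdown of glucosinolates towards isothiocyanates, had 7.10 FPKM in sant-null, against 33.1 FPKM in hda6 and 14.1 FPKM in Col-0 (difference -2.26 ± 0.12). For ESM1 the mutants lay on opposite sides of the wild type. The F-box gene AT3G17400 had 0.574 FPKM in sant-null, against 21.3 FPKM in hda6 and 0.882 FPKM in Col-0 (difference -5.23 ± 0.56), and was close to 0 at 22 °C, with 0 FPKM in sant-null and 0.131 FPKM in hda6.

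**Figure D2:**
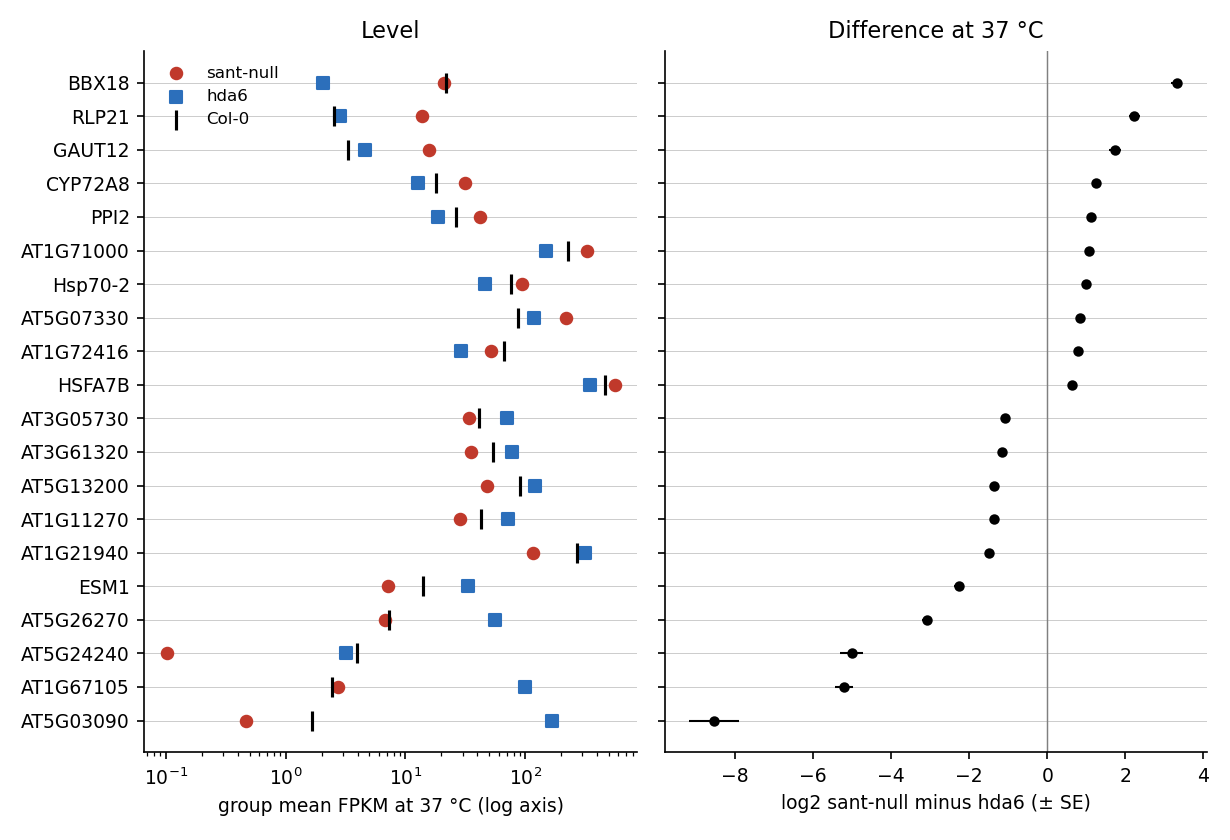
The 10 genes in each direction with the largest absolute Wald score. Left, group mean FPKM at 37 °C on a log axis (red circle sant-null, blue square hda6, black line Col-0); right, the log2 difference sant-null minus hda6 with its SE. AT5G24240 is a gene where sant-null alone is low, and BBX18 a gene where hda6 alone is low.

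Among genes higher in sant-null, BBX18 (AT2G21320) had the strongest call. It encodes a B-box zinc finger protein of light and temperature signalling. BBX18 had 21.0 FPKM in sant-null, against 2.04 FPKM in hda6 and 21.7 FPKM in Col-0, a difference of 3.32 ± 0.14. Here hda6 was low and sant-null stood at the wild-type level. CYP707A4 (AT3G19270), which breaks down the hormone abscisic acid, had 3.57 FPKM in sant-null, against 0.812 FPKM in hda6 and 3.38 FPKM in Col-0 (difference 2.09 ± 0.23). The 7SL RNA AT7SL-1 (AT4G02970), part of the signal recognition particle, had 6.39 FPKM in sant-null, against 1.45 FPKM in hda6 and 4.96 FPKM in Col-0 (difference 2.10 ± 0.30).

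Other genes were high in sant-null alone. RLP21 (AT2G25470), a receptor-like protein, had 13.8 FPKM in sant-null, against 2.86 FPKM in hda6 and 2.55 FPKM in Col-0 (difference 2.23 ± 0.14). GAUT12 (AT5G54690), a galacturonosyltransferase needed for xylan in secondary walls, had 15.8 FPKM in sant-null, against 4.58 FPKM in hda6 and 3.34 FPKM in Col-0 (difference 1.74 ± 0.15). AT1G21540, of the AMP-dependent synthetase family, had 3.59 FPKM in sant-null, against 0.665 FPKM in hda6 and 0.738 FPKM in Col-0 (difference 2.39 ± 0.31). At low levels sant-null was also highest for RR18 (AT5G58080), a response regulator of cytokinin signalling, with 1.20 FPKM in sant-null, against 0.0651 FPKM in hda6 and 0.0963 FPKM in Col-0 (difference 4.13 ± 0.92). TIL2 (AT2G27120), a DNA polymerase epsilon subunit gene, had 1.32 FPKM in sant-null, against 0.127 FPKM in hda6 and 0.0699 FPKM in Col-0 (difference 3.33 ± 0.66).

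Genes that heat raises in the wild type made up most of those higher in sant-null. By the authors' deposited table for Col-0, 310 of the 497 higher genes (62.4%) rose at least 2-fold with heat, and 62 of the 409 lower genes (15.2%), against 9.38% of all genes tested and 12.4% of those with at least 1 FPKM in either mutant. Genes that fell at least 2-fold with heat in the authors' deposited table were 14 of the higher genes (2.82%) and 22 of the lower genes (5.38%), against 17.0% of all genes tested. Conversely, 15.2% of the 2043 heat-raised genes were higher in sant-null and 3.03% were lower. Their median difference was 0.16, and 1671 were not called. The table for heat shares Col-0 libraries with the mutant tables, whose level cancels in the difference.

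Several strong calls among these genes were chaperone cofactors and heat shock genes. AT1G71000, a DnaJ-domain chaperone, had 327 FPKM in sant-null, against 150 FPKM in hda6 and 226 FPKM in Col-0 (difference 1.08 ± 0.06). HSFA7B (AT3G63350), a heat-induced heat shock transcription factor, had 560 FPKM in sant-null, against 347 FPKM in hda6 and 468 FPKM in Col-0 (difference 0.65 ± 0.05). Hsp70-2 (AT5G02490), a cytosolic chaperone, had 94.6 FPKM in sant-null, against 45.8 FPKM in hda6 and 76.2 FPKM in Col-0 (difference 1.00 ± 0.08). In these cases the wild type lay between the mutants. The DnaJ gene AT1G72416 was below the wild type in both mutants, with 52.2 FPKM in sant-null, against 29.1 FPKM in hda6 and 66.3 FPKM in Col-0 (difference 0.80 ± 0.07). AT5G07330, annotated as an iron-sulfur cluster protein, was above it in both, with 220 FPKM in sant-null, against 119 FPKM in hda6 and 87.8 FPKM in Col-0 (difference 0.83 ± 0.07).

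Heat shock elements were searched as GAANNTTC or TTCNNGAA, each matching on both strands, from 250 bases before to 50 after each gene's start. They stood in 26.4% of the promoters of higher genes and 20.1% of those of lower genes, against 19.0% of all. Among the 310 higher genes raised by heat the share was 33.2%, and among the 1671 heat-raised genes not called it was 27.2%. Of the 10 strongest higher genes, 3 had an element within the 250 bases before the start and 2 had more than 1. Of the 10 strongest lower genes, 1 had an element there. The upstream sequences of the pair with several elements are shown because they carry the motif beside some of the strongest differences. They were read from the RefSeq TAIR10.1 genome by its own annotation, 5′ to 3′ on the strand of the gene, with the elements, which overlap in places, in capitals. AT1G71000 is on the minus strand (chr1:26770178-26770427, 4 elements that begin 131 to 79 bases before the start), and HSFA7B is on the plus strand (chr3:23398986-23399235, 3 elements that begin 157 to 102 bases before the start).
AT1G71000: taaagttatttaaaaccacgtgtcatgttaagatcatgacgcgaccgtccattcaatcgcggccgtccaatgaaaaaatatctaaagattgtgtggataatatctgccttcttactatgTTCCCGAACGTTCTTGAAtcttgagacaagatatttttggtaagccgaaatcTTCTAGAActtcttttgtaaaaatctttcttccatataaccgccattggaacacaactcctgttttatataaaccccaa
HSFA7B: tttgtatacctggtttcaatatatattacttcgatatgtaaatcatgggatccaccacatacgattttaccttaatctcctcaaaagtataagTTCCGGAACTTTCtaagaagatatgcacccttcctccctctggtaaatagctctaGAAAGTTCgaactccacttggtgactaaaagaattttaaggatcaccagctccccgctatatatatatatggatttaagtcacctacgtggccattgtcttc
Such a match is a description of the sequence and no evidence of binding.

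Small heat shock protein genes, among the most abundant transcripts after heat, included 1 called gene in each direction. HSP21 (AT4G27670), which protects chloroplasts, had 1996 FPKM in sant-null, against 1377 FPKM in hda6 and 1045 FPKM in Col-0 (difference 0.49 ± 0.06). It was the 1 higher gene of 19 small heat shock protein genes, with 1 lower (5.26% each, beside 2.28% higher and 1.88% lower of all genes tested) and a median of 0.02. The lower one was AT5G37670, with 751 FPKM in sant-null and 856 FPKM in hda6 (difference -0.23 ± 0.06), and its call was lost with FPKM ratios. Of 31 genes for HSP70, HSP90, HSP100 chaperones and their cofactors, 4 were higher (12.9%) and 0 lower, with a median of 0.00 over all 31. Besides Hsp70-2 these were Hsp89.1 (AT3G07770), an organelle HSP90, at 0.61 ± 0.06, the chaperonin HSP60 (AT3G23990) at 0.28 ± 0.06 and the peptidyl-prolyl isomerase AT5G48570 at 0.22 ± 0.05. Among 19 heat shock transcription factors tested, 2 were higher, HSFA7B and HSFA1E (AT3G02990, 0.58 ± 0.16), and HSFB2B (AT4G11660) was lower at -0.24 ± 0.06.

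Protein folding genes of the endoplasmic reticulum were higher in sant-null in 5 of 18 cases (27.8%, beside 2.28% of all genes tested). None was lower (beside 1.88%), and the median was 0.16. Calreticulin CRT1a (AT1G56340), a calcium-binding chaperone, had 34.4 FPKM in sant-null, against 25.6 FPKM in hda6 and 35.9 FPKM in Col-0 (difference 0.38 ± 0.07). The lectin chaperone CNX1 (AT5G61790) had 122 FPKM in sant-null, against 100.1 FPKM in hda6 and 139 FPKM in Col-0 (difference 0.25 ± 0.06). The chaperone BIP2 (AT5G42020) had 184 FPKM in sant-null, against 151 FPKM in hda6 and 235 FPKM in Col-0 (difference 0.24 ± 0.06). All these differences were small, and none reached 2-fold.

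Heat-raised genes were found in the other direction as well. AT1G21940, of unknown function, had 117 FPKM in sant-null, against 316 FPKM in hda6 and 270 FPKM in Col-0 (difference -1.48 ± 0.06). AT5G13200, of the GRAM domain family, had 48.4 FPKM in sant-null, against 120.5 FPKM in hda6 and 90.5 FPKM in Col-0 (difference -1.36 ± 0.06). The F-box related gene AT1G11270 had 28.7 FPKM in sant-null, against 71.9 FPKM in hda6 and 43.0 FPKM in Col-0 (difference -1.37 ± 0.07). Each had under 2 FPKM in all genotypes at 22 °C. AT3G61320, which encodes a bestrophin-like protein, had 35.5 FPKM in sant-null, against 77.1 FPKM in hda6 and 54.1 FPKM in Col-0 (difference -1.16 ± 0.07). The copia-like gene AT1G48720, close to 0 at 22 °C, had 9.97 FPKM in sant-null, against 21.8 FPKM in hda6 and 10.02 FPKM in Col-0 (difference -1.17 ± 0.19). It was the 1 lower gene among 18 transposon-related genes tested (5.56%, beside 1.88% of all genes tested), with 0 higher. Another 48 listed genes of this kind were not tested, so the share leaves out genes such as AT1G34070 and AT3G30820 described above. The summed level of all 66 listed was 23.4 FPKM in sant-null, against 40.2 FPKM in hda6 and 23.0 FPKM in Col-0.

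The 22 °C libraries hold no sample of the 37 °C groups and so give a separate measure of the same contrast. There 245 of 23629 genes were higher in sant-null (1.04%) and 461 lower (1.95%). Of the 408 genes lower at 37 °C that had a value at 22 °C, 366 were negative there and 176 were called lower (43.1%), with 1 called higher. Of the 493 higher genes with a value, 342 were positive at 22 °C and 52 were called higher (10.5%), with 1 called lower. The median difference at 22 °C was -0.20 for the lower and 0.10 for the higher genes, beside 0.01 for all. Of the 310 higher genes raised by heat, 16 were called higher at 22 °C.

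Of the genes with a large negative difference described above, 9 were also called lower without heat. At 22 °C the difference was -8.11 ± 0.55 for AT5G03090, -4.53 ± 0.27 for AT1G67105, -2.97 ± 0.18 for AT5G26270 and -4.84 ± 0.50 for QQS. It was -4.25 ± 0.19 for AT5G24240 and -2.01 ± 0.07 for ESM1. It was -5.30 ± 0.39 for AT3G01345, -5.83 ± 0.44 for AT5G15360 and -6.77 ± 0.90 for HISN6B. None of these 9 genes had a called difference between temperatures. The F-box gene AT3G17400, nearly without transcript at 22 °C as given above, was not called there. BBX18 was higher in sant-null at 22 °C too, but by less (1.28 ± 0.15), with 12.1 FPKM in sant-null, against 4.87 FPKM in hda6 and 9.70 FPKM in Col-0.

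A test of the change itself, the difference at 37 °C minus that at 22 °C, called 103 of 21473 genes with a more positive value at 37 °C (0.480%) and 20 with a more negative one (0.0931%). Among the genes higher at 37 °C, 86 had a called and more positive value with heat and 0 a more negative one. Among the lower genes, 14 were called more negative and 1 more positive. Both sets were picked on the 37 °C value that enters the change, so these directions were largely given beforehand. GAUT12 had 0.9504 FPKM in sant-null and 1.35 FPKM in hda6 at 22 °C, and its difference was larger at 37 °C by 2.29 ± 0.35. For RLP21 the change was 1.67 ± 0.37, for BBX18 2.04 ± 0.21 and for AT1G21540 2.84 ± 0.40. MYB6 (AT4G09460), a transcription factor, had 2.22 FPKM in sant-null, against 9.21 FPKM in hda6 and 2.43 FPKM in Col-0 at 37 °C (difference -2.10 ± 0.25). At 22 °C MYB6 had 4.75 FPKM in sant-null, against 4.27 FPKM in hda6 and 5.0 FPKM in Col-0, so the difference between the mutants appeared in the heated seedlings (change -2.22 ± 0.32).

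**Figure D3:**
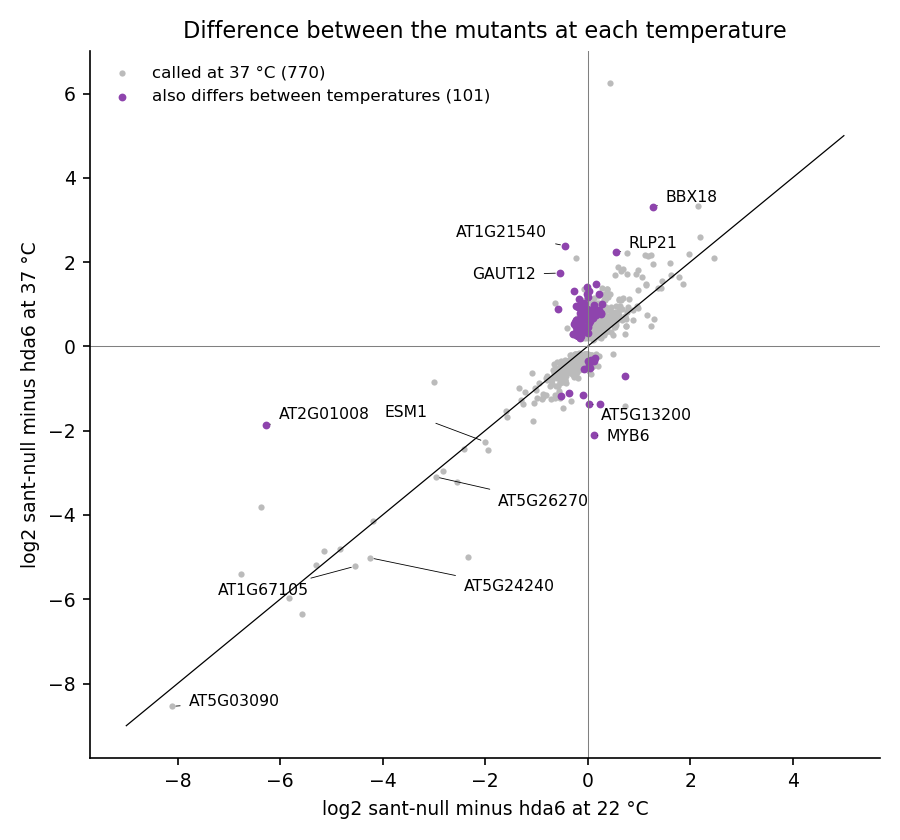
The log2 difference sant-null minus hda6 at 22 °C (horizontal) and at 37 °C (vertical) for 871 genes called at 37 °C; 35 called genes with an SE of 1 or more or no value at 22 °C are left out. Purple marks 101 genes whose difference also changed between temperatures, and the line marks equal differences; BBX18, RLP21 and GAUT12 lie above it and MYB6 below it.

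Ribosomal protein genes that were called were lower in sant-null. By annotated product, organelle forms included, 53 of 277 tested were lower (19.1%, beside 1.88% of all genes tested) and 0 higher. Their median difference was -0.17, 239 were negative, and the lowest called value was -0.38. Their summed level, over all 300 listed, was 14501 FPKM in sant-null, against 16177 FPKM in hda6 and 13938 FPKM in Col-0. At 22 °C the median of the group was -0.03. AT5G18380, of the ribosomal S5 family, had 144 FPKM in sant-null, against 178 FPKM in hda6 and 152 FPKM in Col-0 (difference -0.34 ± 0.06). AT2G01250, of the L30/L7 family, had 101 FPKM in sant-null, against 123 FPKM in hda6 and 99.8 FPKM in Col-0 (difference -0.33 ± 0.06). With FPKM ratios 28 ribosomal genes were lower, and with the centred difference 70.

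The upstream regions of ribosomal genes are known for telo-boxes and site II elements, which were searched as AAACCCTA and TGGGCC on both strands in the same window. The telo-box stood in 50.9% of the promoters of the 53 lower ribosomal genes and in 38.6% of all 277 tested, against 5.57% of all promoters. The site II element stood in 66.0% of the promoters of the lower ribosomal genes and in 55.2% of those of the 277, against 17.8% of all promoters. Over all lower genes the shares were 10.05% and 24.5%, and over all higher genes 2.41% and 14.9%.

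Among phosphate starvation and iron genes, the called ones were lower in sant-null. All 9 phosphate starvation genes had a negative difference, with a median of -0.62, and 4 were called lower (44.4%, beside 1.88% of all genes tested). MGDC (AT2G11810), which makes galactolipids when phosphate is scarce, had 0.648 FPKM in sant-null, against 1.59 FPKM in hda6 and 1.98 FPKM in Col-0 (difference -1.33 ± 0.28). The others were SPX1 (AT5G20150), a phosphate signalling inhibitor, at -0.62 ± 0.18, the phosphate transporter PHT1;1 (AT5G43350) at -0.41 ± 0.11 and the sulfolipid synthesis gene SQD2 (AT5G01220) at -0.35 ± 0.08. Among 18 iron genes 2 were lower (11.1%) and 0 higher. Unlike the phosphate list, the iron list had no common direction, with 8 positive and 10 negative values and a median of -0.01. At 22 °C its median was 0.67. With the Col-0 part of the error removed, 5 iron genes were lower and 2 higher. FER1 (AT5G01600), which encodes the iron store ferritin, had 36.8 FPKM in sant-null, against 59.9 FPKM in hda6 and 69.6 FPKM in Col-0 (difference -0.75 ± 0.08). The ferric reductase FRO2 (AT1G01580) had 2.03 FPKM in sant-null, against 3.19 FPKM in hda6 and 1.34 FPKM in Col-0 (difference -0.69 ± 0.21), a call that was lost with FPKM ratios and with a pseudocount of 0.1 or 1 FPKM. FRO2 was higher in sant-null at 22 °C, by 0.74 ± 0.10.

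Of 18 oxidative stress genes 4 were lower (22.2%) and 1 higher (5.56%), with a median of -0.15. Of all genes tested 1.88% were lower and 2.28% higher. The catalase CAT3 (AT1G20620) had 49.3 FPKM in sant-null, against 77.9 FPKM in hda6 and 63.3 FPKM in Col-0 (difference -0.70 ± 0.06). The superoxide dismutases CSD1 (AT1G08830) and MSD1 (AT3G10920) were lower at -0.50 ± 0.13 and -0.26 ± 0.08, the call of MSD1 being lost with FPKM ratios, and the heat-induced ascorbate peroxidase APX2 (AT3G09640) was higher at 0.31 ± 0.05. Class III peroxidases, secreted enzymes that are mostly expressed in roots, were lower in 6 of 60 cases (10%) and higher in 0, with a median of -0.31. Among them AT5G64120 had 3.99 FPKM in sant-null, against 8.50 FPKM in hda6 and 4.74 FPKM in Col-0 (difference -1.13 ± 0.21). The 6 root hair markers, of which 0 were called and 5 were negative, summed to 4.82 FPKM in sant-null, against 7.24 FPKM in hda6 and 4.60 FPKM in Col-0, and their part in the peroxidase values was not tested. Glutathione S-transferases were lower in 4 of 42 cases (9.52%), led by GSTF6 (AT1G02930) at -0.79 ± 0.11. GSTU5 (AT2G29450) alone was higher (2.38%), at 0.36 ± 0.06. The median of the 42 was -0.04. The summed level of all 45 listed was higher in sant-null, with 2113 FPKM, than in hda6, with 1975 FPKM.

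**Figure D4:**
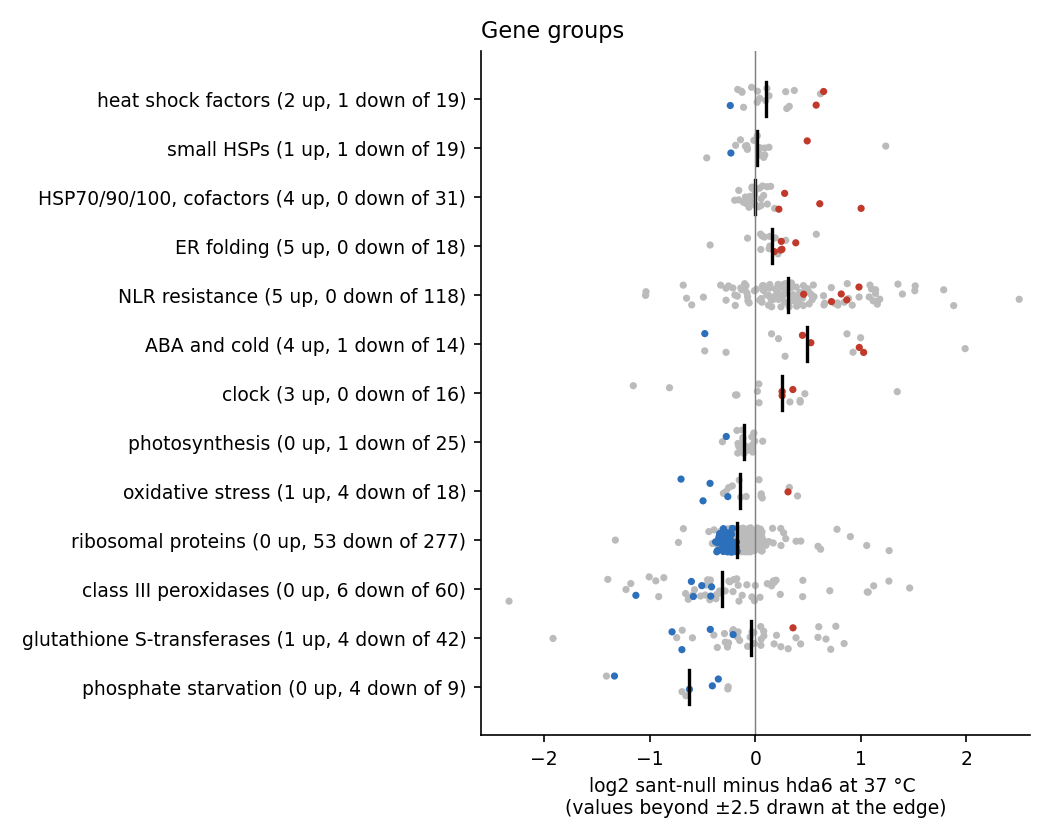
Log2 difference sant-null minus hda6 at 37 °C for the tested genes of 13 groups, each point a gene; red was called higher, blue lower and grey not called, and the black line is the median of the group. The ribosomal group holds 53 lower and 0 higher genes of 277, and the endoplasmic reticulum folding group 5 higher and 0 lower of 18. Of all genes tested 2.28% were higher and 1.88% lower.

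Several abscisic acid, cold, clock and disease resistance genes were higher in sant-null. Among 14 abscisic acid and cold genes 4 were higher (28.6%, beside 2.28% of all genes tested) and 1 lower (7.14%, beside 1.88%), with a median of 0.49. NCED3 (AT3G14440), an enzyme of abscisic acid synthesis, had 3.84 FPKM in sant-null, against 1.83 FPKM in hda6 and 5.13 FPKM in Col-0 (difference 1.03 ± 0.15). The cold-induced KIN1 (AT5G15960) was higher at 0.98 ± 0.22 and the dehydrin ERD10 (AT1G20450) at 0.45 ± 0.08, while RD22 (AT5G25610), a dehydration-responsive gene, was lower at -0.48 ± 0.07. Of 16 clock genes 3 were higher (18.8%) and 0 lower, namely PRR9 (AT2G46790) at 0.36 ± 0.10, CCA1 (AT2G46830) at 0.25 ± 0.06 and PRR7 (AT5G02810) at 0.25 ± 0.08. Disease resistance NLR genes, which encode receptors of pathogen effectors, were higher in 5 of 118 cases (4.24%) and lower in 0, with a median of 0.31 and 93 positive values. AT5G35450 had 4.22 FPKM in sant-null, against 2.07 FPKM in hda6 and 2.98 FPKM in Col-0 (difference 0.98 ± 0.15).

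Jasmonate genes were lower in 2 of 15 cases (13.3%), the synthesis enzymes LOX2 (AT3G45140) at -0.64 ± 0.11 and AOC1 (AT3G25760) at -0.82 ± 0.21. None was higher, but 9 of the 15 values were positive and the median was 0.06. With the Col-0 part of the error removed, 2 were higher and 2 lower. Cytochrome P450 genes were higher in 5 (3.23%) and lower in 2 (1.29%) of 155 cases, beside 2.28% and 1.88% of all genes tested. Among the higher ones was CYP72A8 (AT3G14620), with 31.3 FPKM in sant-null, against 12.9 FPKM in hda6 and 18 FPKM in Col-0 (difference 1.24 ± 0.10). Of 14 flavonoid genes, chalcone synthase TT4 (AT5G13930) was lower at -0.20 ± 0.06, a call that was lost with FPKM ratios, and 0 were higher. Of 25 photosynthesis genes, LHB1B1 (AT2G34430), a light-harvesting protein, was lower at -0.28 ± 0.06 and 0 were higher, although 24 had a negative value. In the lists of 17 glucosinolate synthesis, 14 salicylic acid defence, 12 auxin and warmth-induced growth, 46 histone and 8 DNA damage genes 0 were called. Nor were any of 6 root hair, 5 floral or 6 seed genes.

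Among chromatin and flowering genes the called ones were higher in sant-null, apart from QQS. Of 17 histone deacetylase genes, HDA08 (AT1G08460) was higher, with 26.6 FPKM in sant-null, against 17.8 FPKM in hda6 and 24.5 FPKM in Col-0 (difference 0.54 ± 0.09), and 0 were lower, so 5.88% were higher, beside 2.28% of all genes tested. Of 17 genes for DNA methylation, demethylation and silencing, DML1 (AT2G36490), also called ROS1, a DNA glycosylase that removes methylated cytosine, was higher. It had 1.89 FPKM in sant-null, against 0.626 FPKM in hda6 and 1.42 FPKM in Col-0 (difference 1.55 ± 0.20), and its difference at 22 °C was 1.46 ± 0.13. DML1 was the 1 called of these 17 (5.88%), 15 were positive and their median was 0.30. With the Col-0 part of the error removed, 4 were called higher, beside 1329 of all 21775 genes tested. In the direct test on estimated fragments 6 were called higher, DML1 with NRPD1A, NRPD1B, CMT3, MET1 and IBM1. That test, added after the data were seen and no separate check, called 1661 of 21193 genes higher. Among loci known to be silenced by DNA methylation, QQS was lower as given above, and FWA (AT4G25530) had 0.0581 FPKM in sant-null and 0.0575 FPKM in hda6 (difference -0.03 ± 1.52).

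The flowering repressor FLC (AT5G10140) had 1.80 FPKM in sant-null, against 1.66 FPKM in hda6 and 0.743 FPKM in Col-0, a difference between the mutants of 0.07 ± 0.39. Its relative MAF4 (AT5G65070) had 1.59 FPKM in sant-null, against 1.69 FPKM in hda6 and 0.341 FPKM in Col-0 (difference -0.13 ± 0.39). None of the 6 genes of this family was called, and with errors of this size smaller differences were not detectable at this depth. Of 17 other flowering regulators, FLD (AT3G10390), a histone demethylase homologue that promotes flowering, was higher at 0.84 ± 0.16, GI (AT1G22770), which links the clock to flowering, was higher at 0.48 ± 0.15, and 0 were lower, so 11.8% were higher. Long non-coding RNAs were higher in 1 (0.230%) and lower in 2 (0.460%) of 435 tested genes, of which 57 reached 1 FPKM. Another 3045 were not tested. Among these, AT4G05275, AT1G06987, AT2G04735, AT4G05025 and AT3G06215 were listed at 0 in sant-null with at least 1 FPKM in hda6. The 1 annotated pseudogene tested was not called. Of all genes tested 2.28% were higher and 1.88% lower.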

How the data were processed

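RNA of whole seedlings was sequenced from paired ends, per the labels' protocols. The submitters' processing notes name DESeq2 1.30.1, featureCounts 2.0.1, HISAT2 2.2.1 and CASAVA, and TAIR10 as the build. The sources used here do not give their settings, or how strand and reads with several matches were handled, so genes with near-identical copies, overlapping genes and antisense genes are uncertain. The authors deposited FPKM as a single mean per group. The authors also deposited, for the mutants against Col-0 at both temperatures and for heat in Col-0, a baseMean (a signal averaged over the libraries compared), a log2 fold change with its standard error, a Wald score, a p-value and an adjusted p-value.

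The fit across libraries named in the design for data per library could not be made, because FPKM holds a value per group. The difference between the mutants was therefore derived from the deposited log2 fold changes. Its squared error is the sum of the deposited squared errors. As Col-0 libraries are shared, this sum is an upper bound and the test is conservative. Genes with a value in both tables and an adjusted p in at least one were tested with a 2-sided Wald test (Benjamini-Hochberg), in Python 3.11.15 with pandas 2.3.3, numpy 2.4.6, SciPy 1.17.1, statsmodels 0.14.6 and matplotlib 3.10.9. The test was tested on simulated data with known answers.

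Fragments were estimated from FPKM, exon length and the value of a single fragment in a group, and 48.3% of the sant-null and 48.0% of the hda6 total was assigned to genes. Names, exons and promoters came from RefSeq TAIR10.1, whose annotation gave the coordinates.

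Named genes were, per direction, the 15 largest called differences with at least 1 FPKM, the 10 largest Wald scores, the 8 highest FPKM among called genes and the 5 largest called changes between temperatures, with up to 4 called members of each of 33 lists, every member of lists of 8 or fewer, and runs of 3 adjacent called genes. The genes not tested and those listed at 0 were chosen after their values were seen. The members and lists were chosen with earlier results of these data known. Alternatives were another error, scale, filter, threshold, set of genes tested and pseudocount, and a direct test on estimated fragments, added after the data were seen.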

Additional observations from a re-analysis of the deposited data

Results flagged for a closer look

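The difference between sant-null and hda6 changed with temperature in the genes below, by the Wald test of the change (37 °C minus 22 °C) with Benjamini-Hochberg adjustment over 21473 genes. The change was positive for BBX18 (2.04), RLP21 (1.67), GAUT12 (2.29) and AT1G21540 (2.84), genes higher in sant-null at 37 °C. It was also positive for AT2G01008 (4.41), annotated as a maternal effect embryo arrest protein, which was lower in sant-null at both temperatures. AT2G01008 had 0.373 FPKM in sant-null and 1.31 FPKM in hda6 at 37 °C, and 0.0696 FPKM in sant-null and 5.32 FPKM in hda6 at 22 °C.

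The change was negative for MYB6 (-2.22), AT1G11270 (-1.60), AT5G13200 (-1.38) and FRO2 (-1.43). It was also negative for AT1G53540 (-2.04), a small heat shock protein gene that had 2.25 FPKM in sant-null, against 0.567 FPKM in hda6 and 3.55 FPKM in Col-0 at 22 °C. At 37 °C AT1G53540 had 3617 FPKM in sant-null and 3711 FPKM in hda6 and was not called (difference -0.08 ± 0.05).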

How the results depend on the processing

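The counts of 497 higher and 409 lower genes grew to 1329 and 1172 when the Col-0 part of the error was removed, and to 1661 and 901 in the direct test on estimated fragments, which was chosen after seeing the data. All 497 and all 409 genes remained called in both. With the Col-0 part removed this was fixed in advance, because no error could become larger. The direct test used the same group levels, also without a Col-0 error, so it is no separate check. At 2-fold or more the counts were 88 and 60. Genes higher at both temperatures were 52, and 264, 370, 12 and 30 with the Col-0 part removed, in the direct test, at 2-fold and at an adjusted p under 0.01. Genes lower at both temperatures were 176, and 498, 398 and 32 in the first 3 of these. The change between temperatures was called positive for 103 and negative for 20 genes, and for 448 and 168 with the Col-0 part removed. Under the other alternatives the counts at 37 °C and at both temperatures stayed within 1.5 times, as did those of the change with FPKM ratios and among genes of at least 1 FPKM, the others run for it. With the Col-0 part removed, lower calls grew from 53 to 115 among ribosomal, 4 to 8 among phosphate, 6 to 15 among peroxidase and 1 to 14 among photosynthesis genes, and higher calls from 5 to 16 among NLR, 3 to 5 among clock and 5 to 19 among P450 genes. In the direct test these were 90, 7, 14 and 7, and 17, 5 and 22, with 8 folding and 9 large chaperone genes higher. With the Col-0 part removed, 6 large chaperone genes were higher and 3 lower. The direct test called 24 of the 25 untested genes lower. All 25 were listed at 0 in sant-null with at least 1 FPKM in hda6. That test used these same levels, so the direction was given beforehand. Lower photosynthesis calls were 7 when centred and 5 among genes of at least 1 FPKM. With FPKM ratios 28 ribosomal and 2 oxidative stress genes were lower and 8 P450 genes higher, and at an adjusted p under 0.01 there were 31 ribosomal and 2 oxidative stress genes lower and 1 clock gene higher. At 2-fold these lists kept at most 1 call in the given direction, apart from P450 genes. FPKM ratios lay 0.04 above the deposited scale. No result reversed. Of 136 named called genes, 11 lost the call with FPKM ratios (among them FRO2, TT4, MSD1, CSD2, AT5G37670, AT3G17410, AT5G08680 and AT5G08690), 22 at an adjusted p under 0.01, 22 and 45 with pseudocounts of 0.1 and 1 FPKM, 80 at 2-fold, 3 when centred and 2 when all genes were tested. The cause was not tested, except that a larger error or a stricter threshold leaves fewer calls by construction. No paired analysis was possible because the deposited columns hold a value per group, and leaving out libraries was not run for the same reason.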

Other observations

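BBX18 was not the only B-box gene that was higher in sant-null. In a family list chosen after its values were seen, 6 of 27 B-box genes tested were higher and 0 lower, with a median difference of 0.24. Of all genes tested 2.28% were higher and 1.88% lower, and a list chosen this way is a description. Besides BBX18 the higher B-box genes were BBX15 (AT1G25440, 29.3 FPKM in sant-null and 16.8 FPKM in hda6, difference 0.76 ± 0.08), BBX14 (AT1G68520, 0.80 ± 0.12), BBX16 (AT1G73870, 0.67 ± 0.08), COL2 (AT3G02380, 0.61 ± 0.12) and BBX8 (AT5G48250, 0.55 ± 0.15).

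Called genes lay on all chromosomes, with 2.08% to 2.68% of the tested genes higher and 1.52% to 2.15% lower on each. In 5 places 3 adjacent genes were called in one direction. The lipid-transfer-like genes AZI1 (AT4G12470), EARLI1 (AT4G12480) and AT4G12490 were lower, at -1.24 ± 0.11, -1.06 ± 0.12 and -1.19 ± 0.35. They are near copies of each other, so reads may have been split between them. So may those of 3 lower ATP synthase genes (AT5G08670, AT5G08680 and AT5G08690), at -0.23 ± 0.06, -0.25 ± 0.07 and -0.18 ± 0.06. AT2G01008 lies beside the ribosomal RNA genes AT2G01010 and AT2G01020, which were lower at -1.36 ± 0.17 and -0.999 ± 0.18 and exist in many copies. MTO3 (AT3G17390), an S-adenosylmethionine synthetase gene, was lower at -0.38 ± 0.07, beside the F-box gene AT3G17400 and the kinase gene AT3G17410 (-0.32 ± 0.10). The higher run was AT5G11090, SYTD (AT5G11100) and SPS2F (AT5G11110), a sucrose phosphate synthase gene, at 0.50 ± 0.09, 0.70 ± 0.11 and 0.47 ± 0.10. The G-box CACGTG stood in 13.9% of the promoters of higher genes and 6.62% of those of lower genes, against 8.62% of all. Among higher genes raised by heat the share was 14.2%, and among heat-raised genes not called it was 11.0%. The shorter ACGTG, which the G-box contains, stood in 37.4% of the promoters of higher genes and 34.6% of those of lower genes, against 27.7% of all.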
